A study of Homo sapiens with 4 samples.

Results

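Transcripts of the NF-κB subunits and of the inhibitors that feed back on them were compared between Jurkat cells in which SOX4 was reduced by a short hairpin RNA (sh-SOX4, 2 libraries) and Jurkat cells carrying a scrambled hairpin in its place (sh-Scb, 2 libraries). Jurkat is a human T cell acute lymphoblastic leukemia line, and both groups were otherwise untreated as far as the labels say. The members were 10 genes taken by symbol from the 64252 gene IDs of the count table: the subunits NFKB1, NFKB2, REL, RELA and RELB, the classical inhibitors NFKBIA, NFKBIB and NFKBIE, the atypical inhibitor NFKBIZ, and TNFAIP3. Each symbol matched 1 ID, and all 10 members passed the filter on low counts. The labels do not say that the libraries of a group were grown as separate cultures. The p-values therefore measure only how these libraries spread, which may be technical. The labels name 1 cell line and 1 hairpin for each group, and do not give the stretch of SOX4 that the hairpin targets.

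NF-κB factors are dimers of Rel-homology proteins that bind κB sites in DNA. NFKB1 and NFKB2 encode precursors that are cut to DNA-binding subunits without a transactivation domain, while RELA, REL (c-Rel) and RELB carry one. The classical IκB proteins hold dimers in the cytoplasm until the IκB kinase (IKK) complex marks them for degradation. NFKBIZ encodes a nuclear IκB that works on a subset of promoters, and TNFAIP3 encodes a ubiquitin-editing enzyme that shuts off signalling upstream of IKK. Several of these genes are themselves NF-κB targets, and in T cells signals from the T cell receptor reach IKK.

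The libraries held 32872606 and 30830081 counts in sh-SOX4, and 36636219 and 29093287 in sh-Scb. SOX4, the targeted gene, stood at 191 and 199 CPM in sh-SOX4, against 271 and 277 CPM in sh-Scb, which is 71.1% of the sh-Scb level. Levels are in CPM, the usual depth-scaled count, with library sizes adjusted by the trimmed mean of M-values (TMM). T lineage markers were abundant in every library, with summed levels of 2000 to 2007 CPM in sh-SOX4 and 1523 to 1539 CPM in sh-Scb. Of these 8 markers, 6 rose and 1 fell, or 87.5% called, against 44.1% of all IDs tested. Of the B cell, myeloid, epithelial and fibroblast markers, 8 of 15 were tested and CD79A and COL1A1 fell. CD79A, part of the B cell receptor complex, had 13.1 and 13.4 CPM in sh-SOX4, against 67.2 and 65.9 CPM in sh-Scb, a log2 fold change of -2.32 and larger in size than that of any member. COL1A1, a collagen chain, had 17.2 and 17.4 CPM in sh-SOX4, against 24.4 and 25.8 CPM in sh-Scb. LYZ and COL1A2 had no counts in any library, and MS4A1, PAX5, CD14, CSF1R, EPCAM, KRT8, KRT19, CDH1 and DCN stayed under 1 CPM in all 4. The B cell markers did not fall together. MS4A1 had 7 and 9 counts in sh-SOX4 and 2 and 0 in sh-Scb. PAX5 had 28 and 7 counts in sh-SOX4 and 22 and 6 in sh-Scb, and was not called. The part of these marker differences in the results on NF-κB genes was not tested. In bulk RNA, fewer cells of a type and less RNA per cell cannot be told apart.

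The members did not move together: REL, the largest mover among them, fell to 52.0% of its sh-Scb level while NFKB1 and NFKBIB rose by 1.54-fold and 1.66-fold. RELA, RELB and NFKBIA rose by smaller amounts, NFKBIZ and TNFAIP3 fell, and NFKB2 and NFKBIE did not pass the test. In all, 5 members rose and 3 fell at an edgeR adjusted p under 0.05, which is 8 of 10. Calls were common in this comparison, where 44.1% of the 19897 IDs tested were called, 23.2% higher and 20.9% lower. They were more common among abundant IDs, where most members lie. With a filter at 10 CPM in 2 libraries, which removed NFKBIZ, 66.2% of 10797 IDs were called, and 4 members were higher and 3 lower. The members called were not all the same, since RELB lost its call (edgeR adjusted p 0.0604) and NFKB2 was called lower (0.0087). The median log2 fold change was 0.18 over the members and -0.01 over all IDs tested. Groups did not overlap in 9 of 10 members, as in 72.9% of all IDs tested. With scaling to library totals alone, 3629 IDs were higher and 5260 lower, the median log2 fold change of all IDs moved to -0.11, and 3 members were higher and 4 lower.

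**Figure D1:**
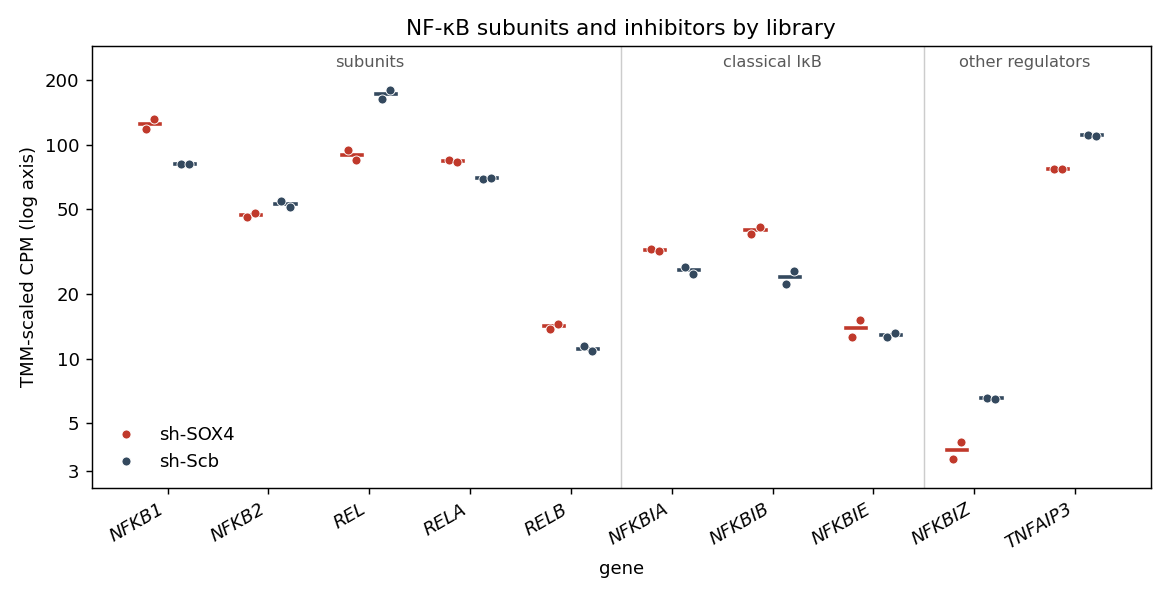
Scaled level of each member in each library, as TMM-scaled CPM on a log axis. Points are libraries (sh-SOX4 left of sh-Scb for each gene) and bars are group means, and in all genes but NFKBIE the points of the groups do not overlap.

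**Figure D2:**
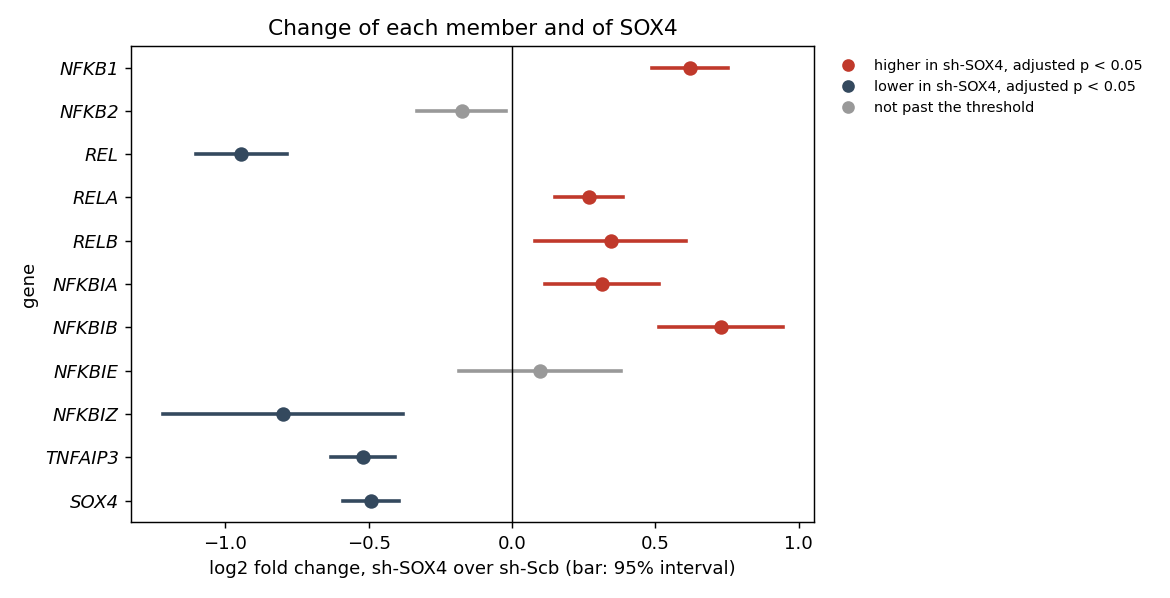
Log2 fold change of each member and of SOX4, sh-SOX4 over sh-Scb, with its 95% interval from the fit across all genes. The members run from -0.94 for REL to 0.73 for NFKBIB.

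Sequence before the transcript start was available for 8 of the 10 members (14 RefSeq starts), all but RELB and NFKBIE. The 250 bases before each start were searched on both strands for the degenerate 10-base NF-κB consensus. It was found in 7 of the 8 members, all but RELA, and in 11.8% of the 27305 genes with such sequence. Its commonest exact version among the members, GGGAATTTCC, was picked out after these sequences had been read, and matches to it also match the consensus. It stood before a start of 5 members, NFKB1, REL, NFKBIA, NFKBIB and NFKBIZ, and of 0.176% of genes. Those 5 genes did not share a direction, since NFKB1, NFKBIA and NFKBIB rose while REL and NFKBIZ fell. Of the sites of 30 bases below, the first 5 are shown because they set this common version beside members that moved opposite ways, and those of TNFAIP3, which fell, and NFKB2, which was not called, because they hold other versions of the consensus. They are from RefSeq on GRCh38.p14, 5′ to 3′ on the transcript strand, with the matches in capitals. RefSeq and GENCODE, the source of the gene spans given below, do not place all starts alike. The matches shown for REL, NFKBIB, TNFAIP3 and NFKB2 lie inside the GENCODE spans of those genes. A match read as GGAAATTCCC is GGGAATTTCC on the other strand, and in REL, NFKBIB and NFKB2 matches on both strands overlap.
NFKB1 site (chr4:102501300-102501329, plus strand): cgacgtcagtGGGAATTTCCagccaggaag
NFKBIA site (chr14:35404811-35404840, minus strand): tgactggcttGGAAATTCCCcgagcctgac
NFKBIB site (chr19:38899931-38899960, plus strand): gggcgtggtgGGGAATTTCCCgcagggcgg
REL site (chr2:60881517-60881546, plus strand): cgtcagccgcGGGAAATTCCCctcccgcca
NFKBIZ site (chr3:101827757-101827786, plus strand): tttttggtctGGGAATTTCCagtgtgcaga
TNFAIP3 site (chr6:137867188-137867217, plus strand): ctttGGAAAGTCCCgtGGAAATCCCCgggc
NFKB2 site (chr10:102394461-102394490, plus strand): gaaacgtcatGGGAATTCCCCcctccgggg
NFKB2 site (chr10:102395674-102395703, plus strand): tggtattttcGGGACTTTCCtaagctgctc

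TNFAIP3 held a pair of matches close together, of which the first reads GGGACTTTCC on the other strand, and NFKB2 held matches before 2 of its 3 starts, one of them also GGGACTTTCC. That version was found in 0.216% of genes, and GGGAAATTCC, found in REL and NFKBIB across the site already shown, in 0.183%. Both versions were also picked from these windows, because they stood before starts of at least 2 members. Their shares over all genes are therefore description only. The SOX-type word AACAAAG, searched on both strands, was in none of the 14 member windows and in 5.53% of genes. At that share, and with only this exact word searched, so few genes cannot show whether the members lack SOX sites. The other genes with GGGAATTTCC had it 40 bases before a start in NFKB1 and 19 in NFKBIB, which rose, and 37 in REL, which fell. Whether placement goes with direction was not tested. The whole windows of NFKBIA, which rose, and NFKBIZ, which fell, are given below. There the same 10 bases lie 72 bases before the start in NFKBIA and 214 before the upstream start in NFKBIZ.
NFKBIA promoter (chr14:35404750-35404999, minus strand): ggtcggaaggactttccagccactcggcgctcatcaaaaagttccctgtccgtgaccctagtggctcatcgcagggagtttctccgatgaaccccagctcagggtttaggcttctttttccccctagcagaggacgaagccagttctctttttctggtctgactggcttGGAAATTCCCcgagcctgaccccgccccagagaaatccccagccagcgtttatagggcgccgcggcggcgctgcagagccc
NFKBIZ promoter (chr3:101827740-101827989, plus strand): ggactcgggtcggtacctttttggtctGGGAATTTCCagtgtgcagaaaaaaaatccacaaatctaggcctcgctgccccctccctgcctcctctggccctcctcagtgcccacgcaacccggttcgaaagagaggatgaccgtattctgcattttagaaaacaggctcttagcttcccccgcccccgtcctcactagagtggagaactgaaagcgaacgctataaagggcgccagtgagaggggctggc
A match describes letters in the window and was not tested for binding in these cells.

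REL (ENSG00000162924, GRCh38 chromosome 2, 60881521 to 60931610), the c-Rel subunit of lymphoid cells, fell. It was counted 3000 and 2518 times in sh-SOX4 and 6185 and 5464 times in sh-Scb. The scaled levels were 94.6 and 84.6 CPM in sh-SOX4, against 164 and 181 CPM in sh-Scb, so that both sh-SOX4 libraries lay well under both sh-Scb libraries. The log2 fold change was -0.94 (SE 0.070), with an edgeR adjusted p of 6.91e-06, and 23.9% of all called IDs changed by more in size. Of the annotated exonic bases of REL, 43.3% also lie in AC010733.2, a noncoding gene on the same strand. That gene had 123 and 114 counts in sh-SOX4 and 344 and 33 in sh-Scb, few beside those of REL. How counting divided reads over the shared bases is not given, and strand cannot separate them. These counts therefore do not show how many REL reads came from that gene. The same limit holds for the REL values per kilobase and shares below.

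NFKB1 (ENSG00000109320, chromosome 4, 102501329 to 102617302), which encodes the precursor of the main DNA-binding partner of RELA and c-Rel, rose. It was counted 3768 and 3923 times in sh-SOX4 and 3093 and 2440 times in sh-Scb. Its levels were 119 and 132 CPM in sh-SOX4, against 81.8 and 81.0 CPM in sh-Scb. Both sh-SOX4 libraries were higher, although they stood farther apart from each other than the sh-Scb libraries did. This was a log2 fold change of 0.62 (SE 0.059), with an edgeR adjusted p of 1.88e-05. None of its exonic bases are shared with another annotated gene.

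RELA (ENSG00000173039, chromosome 11, 65653596 to 65663094), the main transactivating subunit of the canonical pathway, rose by a small amount with tight replicates. Its levels were 84.6 and 83.1 CPM in sh-SOX4, against 69.1 and 70.3 CPM in sh-Scb. The log2 fold change was 0.27 (SE 0.053), or 1.204-fold, with an edgeR adjusted p of 0.00217. A test of whether the rise exceeded 1.2-fold did not pass, with an edgeR adjusted p of 0.430. An estimate this close to 1.2-fold left that test almost no room to pass, so it does not bear on whether RELA rose.

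RELB (ENSG00000104856, chromosome 19, 45001430 to 45038198), the transactivating partner of the noncanonical pathway, was the least abundant subunit. It had 13.8 and 14.5 CPM in sh-SOX4, against 11.5 and 10.9 CPM in sh-Scb. The log2 fold change was 0.34 (SE 0.12), with an edgeR adjusted p of 0.0380. Leaving out any single library ended the call, with an edgeR adjusted p of 0.0685 and 0.170 without sh-SOX4 replicates 1 and 2, and of 0.0643 and 0.158 without sh-Scb replicates 1 and 2. NFKB2 (ENSG00000077150, chromosome 10, 102394110 to 102402529), which encodes the precursor that pairs with RELB, had 46.0 and 48.2 CPM in sh-SOX4, against 54.9 and 51.4 CPM in sh-Scb. Its groups did not overlap, but its log2 fold change of -0.18 (95% interval -0.33 to -0.02) had an edgeR adjusted p of 0.0640. Without sh-Scb replicate 2 that value was 0.0455, and with library totals 0.00873.

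Set per kilobase of annotated exon, 4 subunits stood close together in sh-Scb and apart in sh-SOX4. NFKB1 had 20.02 ± 1.47 CPM per kb in sh-SOX4 and 13.01 ± 0.0902 in sh-Scb (SD, n = 2). REL had 6.80 ± 0.537 CPM per kb in sh-SOX4 and 13.1 ± 0.957 in sh-Scb (SD, n = 2). In sh-Scb the means of REL, NFKB1 and RELA lay between 12.8 and 13.1 CPM per kb, and the REL libraries spanned those of the other two, followed by NFKB2 at 11.9 and RELB at 3.68. In sh-SOX4 the order was NFKB1, RELA at 15.4, NFKB2 at 10.5, REL, and RELB at 4.67 CPM per kb, with no overlap between neighbours. The closeness in sh-Scb depended on the length used. With the longest coding transcript in place of all exons, the sh-SOX4 means were 30.7 CPM per kb for NFKB1, 26.4 for RELA, 13.8 for NFKB2 and 7.96 for REL. The sh-Scb means by that length were 21.9 CPM per kb for RELA, 19.9 for NFKB1, 15.6 for NFKB2 and 15.3 for REL.

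As a share of the summed level of the 5 subunits, REL made up 12.7% and 11.03% in the sh-SOX4 libraries and 22.9% and 25.2% in the sh-Scb libraries. NFKB1 made up 33.6% and 36.2% in sh-SOX4 and 24.1% and 23.7% in sh-Scb. The sum itself was 57.3 ± 1.26 CPM per kb in sh-SOX4 and 54.4 ± 0.314 in sh-Scb (SD, n = 2), a log2 ratio of 0.076 that turned to -0.023 with library totals. With 2 libraries in each group the smallest two-sided exact permutation p is 0.333, so these sums are given as values. NFKB1 and NFKB2, the subunits without a transactivation domain, together had 29.2 and 31.8 CPM per kb in sh-SOX4, against 25.3 and 24.4 in sh-Scb, a log2 ratio of 0.29. RELA, REL and RELB, which carry one, had 27.2 and 26.4 CPM per kb in sh-SOX4, against 28.8 and 30.2 in sh-Scb, a log2 ratio of -0.14. Neither pair of groups overlapped, as for 72.9% of all single IDs tested, and the sums moved in opposite directions. With that other length, the mean share of REL was 9.38% in sh-SOX4 and 19.8% in sh-Scb. The log2 ratio of RELA, REL and RELB was smaller in size by that length, as given in the last section.

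**Figure D3:**
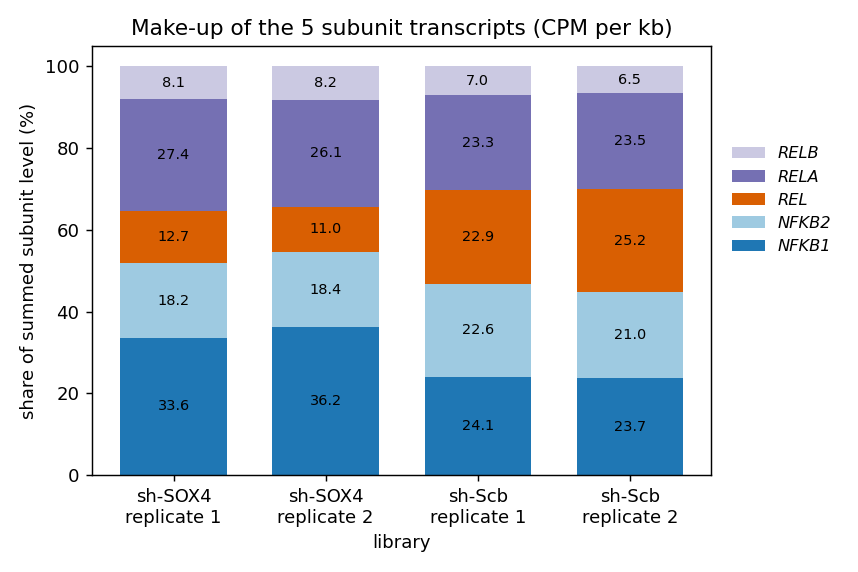
Share of each subunit in the summed level of the 5 subunits (CPM per kb of exon) in each library, sh-SOX4 left of sh-Scb. The REL segment is 11.03% to 12.7% in sh-SOX4 and 22.9% to 25.2% in sh-Scb.

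Among the classical inhibitors, NFKBIB (ENSG00000104825, chromosome 19, 38899700 to 38908893), which encodes IκB-beta, rose most. Its levels were 38.5 and 41.2 CPM in sh-SOX4, against 22.4 and 25.8 CPM in sh-Scb. Both sh-SOX4 libraries lay above both sh-Scb libraries, with a log2 fold change of 0.73 (SE 0.097) and an edgeR adjusted p of 0.000177. SIRT2, on the opposite strand, shares 1.72% of its exonic bases and had a log2 fold change of -0.0039.

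NFKBIA (ENSG00000100906, chromosome 14, 35401511 to 35404749) encodes IκB-alpha, the inhibitor that is resynthesised fastest after NF-κB activation. It had 32.6 and 31.8 CPM in sh-SOX4, against 27.0 and 24.8 CPM in sh-Scb. The log2 fold change was 0.31 (SE 0.089), with an edgeR adjusted p of 0.0167. The call ended without sh-SOX4 replicate 1 (edgeR adjusted p 0.0555), without sh-Scb replicate 2 (0.0794) and with library totals (0.0762).

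NFKBIE (ENSG00000146232, chromosome 6, 44258166 to 44265788), which encodes IκB-epsilon, had 12.6 and 15.1 CPM in sh-SOX4, against 12.7 and 13.2 CPM in sh-Scb. The groups overlapped. Its log2 fold change of 0.098 had a 95% interval of -0.19 to 0.38 and an edgeR adjusted p of 0.570, so a change of the size of NFKBIB lies outside the interval and one of the size of NFKBIA inside it. Summed per kilobase, the 3 classical inhibitors reached 36.1 ± 1.26 CPM per kb in sh-SOX4 and 26.3 ± 0.571 in sh-Scb (SD, n = 2), a log2 ratio of 0.46. NFKBIB made up 47.1% and 48.0% of that sum in sh-SOX4 and 37.1% and 41.6% in sh-Scb, and NFKBIA 39.0% and 36.2% in sh-SOX4 and 43.9% and 39.2% in sh-Scb. Their sum over that of the subunits was 0.623 and 0.635 in sh-SOX4, and 0.478 and 0.489 in sh-Scb (log2 ratio 0.38), a ratio that scaling to library totals does not alter.

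Both remaining regulators fell. TNFAIP3 (ENSG00000118503, chromosome 6, 137867188 to 137883312) had 77.5 and 77.1 CPM in sh-SOX4, against 112 and 110.1 CPM in sh-Scb, and replicates within a group were nearly equal. The log2 fold change was -0.52 (SE 0.050), with an edgeR adjusted p of 1.93e-05. AL357060.1, an antisense gene sharing 1.88% of its exonic bases, also fell, with 154 and 145 counts in sh-SOX4, 446 and 300 in sh-Scb, and a log2 fold change of -1.16. Reads over the shared bases cannot be told apart unless counting used strand, which no label states. NFKBIZ (ENSG00000144802, chromosome 3, 101827991 to 101861022) was the least abundant member, with 108 and 122 counts in sh-SOX4 and 248 and 196 in sh-Scb. It had 3.41 and 4.10 CPM in sh-SOX4, against 6.56 and 6.51 CPM in sh-Scb. That is a log2 fold change of -0.80 (SE 0.19), with an edgeR adjusted p of 0.00598.

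**Figure D4:**
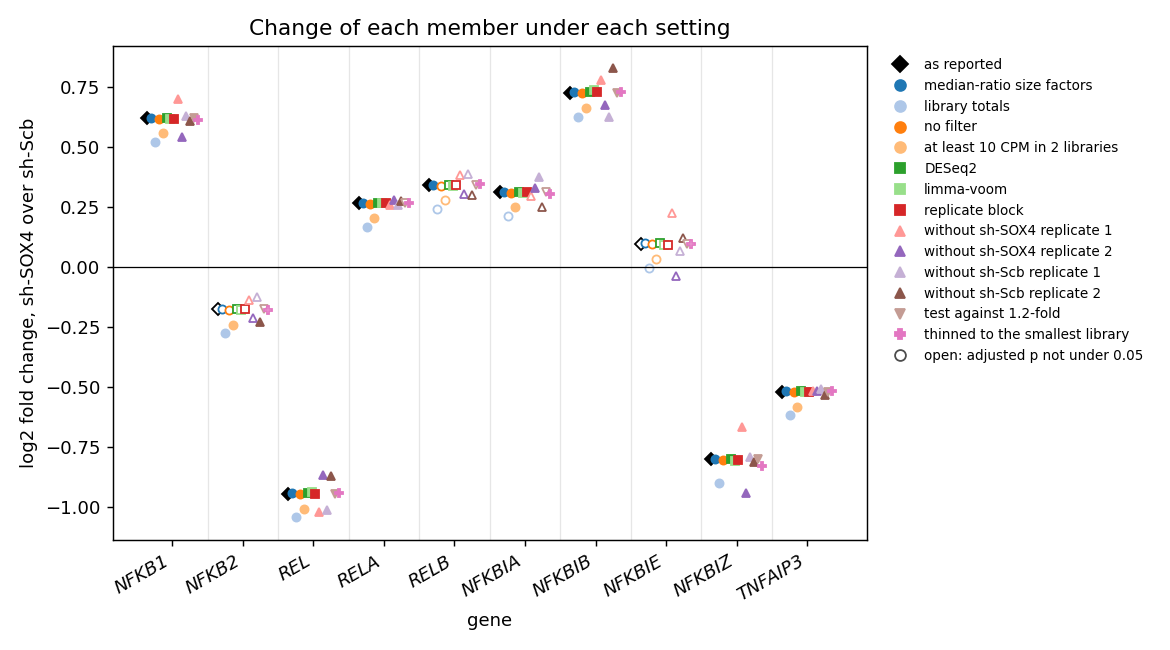
Log2 fold change of each member, sh-SOX4 over sh-Scb, as reported and under 13 other settings. Filled symbols passed an adjusted p under 0.05 and open symbols did not, and NFKB1, REL, NFKBIB, NFKBIZ and TNFAIP3 are filled under every setting that tested them, while RELB is open under 10 of 13.

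The wider pathway was read from lists of 4 to 22 genes, with changes given on the log2 scale. Of 11 IKK and linked kinases, 4 rose and 2 fell, or 54.5% called against 44.1% of all IDs tested, with a list median of 0.052. With the filter at 10 CPM, where 66.2% of IDs were called, 4 of these kinases were higher and 3 lower. IKBKE, an IKK-related kinase, rose by 0.68 (SE 0.090) and had 32.0 ± 1.19 CPM in sh-SOX4 and 19.95 ± 0.237 in sh-Scb (SD, n = 2). TBK1, its close relative, rose by 0.36 (SE 0.085). A gene on the opposite strand covers 14.7% of the exonic bases of TBK1. IKBKB, the catalytic subunit of canonical IKK, and TAB2, an adaptor of the kinase that activates IKK, fell by 0.21 (SE 0.054) and 0.36 (SE 0.049) on the log2 scale. CHUK, the other catalytic subunit, rose by 0.24 (SE 0.068), with an edgeR adjusted p of 0.0162 that was 0.115 without sh-SOX4 replicate 1 and 0.0582 without sh-Scb replicate 1. IKBKG, the regulatory subunit, rose by 0.36 (SE 0.12), with an edgeR adjusted p of 0.0329. That value was 0.0622 and 0.0928 without sh-SOX4 replicates 1 and 2 and 0.229 without sh-Scb replicate 1, and the gene has an annotated pseudogene, IKBKGP1, so its counts are uncertain. MAP3K14, the kinase of the noncanonical pathway, had 15.03 ± 0.696 CPM in sh-SOX4 and 15.1 ± 1.25 in sh-Scb (SD, n = 2), with an edgeR adjusted p of 0.979. With library totals, 2 of these 11 genes were higher and 3 lower.

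Of 14 receptor adaptors and ubiquitin enzymes, 4 rose and 3 fell, or 50% called against 44.1% of all IDs tested, with a median of 0.086. With the filter at 10 CPM, where 66.2% of IDs were called, 4 of these genes were higher and 4 lower. TRAF1, an adaptor whose gene responds to NF-κB, fell to 16.1 and 14.5 CPM in sh-SOX4, against 44.4 and 44.8 CPM in sh-Scb. Its log2 fold change was -1.54 (SE 0.092), with an edgeR adjusted p of 9.08e-07. TRAF3, which holds MAP3K14 at low protein levels, rose by 0.54 (SE 0.053). UBE2N and UBE2V1, which together build a kind of ubiquitin chain used in this pathway, rose by 0.57 (SE 0.055) and 0.45 (SE 0.043). However, 39.5% and 42.9% of their exonic bases are shared, UBE2V1 has 15 annotated pseudogenes, and UBE2N has UBE2NP1. RIPK1, the kinase recruited to TNF receptors, rose by 0.61 (SE 0.068). TRAF5, a further adaptor of these receptors, and BIRC2, a ubiquitin ligase, fell by 0.43 (SE 0.048) and 0.32 (SE 0.073) on the log2 scale.

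Of 12 other brakes on NF-κB, 3 rose and 1 fell, or 33.3% called against 44.1% of all IDs tested, with a median of 0.011. With the filter at 10 CPM, where 66.2% of IDs were called, 3 of these genes were higher and 4 lower. PDLIM2, a ubiquitin ligase for nuclear RELA, rose by 0.76 (SE 0.093), TNIP2, a binding partner of the TNFAIP3 protein, by 0.50 (SE 0.094), and COMMD1, which promotes RELA turnover, by 0.47 (SE 0.13). COMMD1 shares 38.5% of its exonic bases with other genes and lost its call without sh-SOX4 replicate 2 (edgeR adjusted p 0.0830) and without sh-Scb replicate 2 (0.0678). OTULIN, a deubiquitinase, fell by 0.13 (SE 0.047) on the log2 scale with an edgeR adjusted p of 0.0460, which was 0.174 and 0.156 without sh-SOX4 replicates 1 and 2 and 0.181 without sh-Scb replicate 1. CYLD, a tumour-suppressor deubiquitinase, had 117 ± 0.826 CPM in sh-SOX4 and 113 ± 3.37 in sh-Scb (SD, n = 2) and did not pass, with an edgeR adjusted p of 0.532. With library totals, 5 of the 12 genes were lower.

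Among 10 receptors tested of 12 listed, 3 rose and 2 fell, or 50% called against 44.1% of all IDs tested, with a median of -0.28. Most of these genes had low levels. Summed, the listed receptors had 345 and 342 CPM in sh-SOX4, against 248 and 228 CPM in sh-Scb, mostly from CD28 and TNFRSF1A. CD28, the costimulatory receptor, rose by 0.63 (SE 0.053) and TNFRSF1A, a TNF receptor, by 0.40 (SE 0.084). TNFRSF4 (OX40), another costimulatory receptor, had 5.45 and 7.89 CPM in sh-SOX4, against 2.62 and 3.22 CPM in sh-Scb, and rose. TNFRSF1B, the other TNF receptor, had 1.54 and 0.773 CPM in sh-SOX4, against 3.91 and 3.85 CPM in sh-Scb, and fell. TNFRSF13C, the BAFF receptor, also fell, by 0.96 (SE 0.32) on the log2 scale, with an edgeR adjusted p of 0.0361 that was 0.168 without sh-SOX4 replicate 1 and 0.158 without sh-Scb replicate 1.

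Of 18 NF-κB-responsive genes tested of 22 listed, 2 rose and 4 fell, with a median of 0.0033. That is 33.3% called, against 44.1% of all IDs tested. TRAF1, given above, is in this list too. CD69, an early activation marker, had 31.6 and 29.96 CPM in sh-SOX4, against 48.1 and 52.9 CPM in sh-Scb, a log2 fold change of -0.71 (SE 0.082). CCR7, a homing receptor, fell by 0.67 (SE 0.13) and IER3, an immediate early gene, by 0.89 (SE 0.21) on the log2 scale. LTB, a membrane-bound TNF-family cytokine, rose by 0.92 (SE 0.25), with an edgeR adjusted p of 0.0144 that was 0.0687 without sh-SOX4 replicate 1 and 0.0683 without sh-Scb replicate 2. ICAM1, an adhesion molecule, rose by 0.28 (SE 0.094), with an edgeR adjusted p of 0.0341 that missed the threshold without any single library (0.0728 to 0.134). Genes on the opposite strand share 26.5% of the exonic bases of IER3 and 23.6% of those of ICAM1, so their counts are less certain. BIRC3, an apoptosis inhibitor that NF-κB induces, did not pass, at 135 ± 8.68 CPM in sh-SOX4 and 143 ± 12.02 in sh-Scb (SD, n = 2), with an edgeR adjusted p of 0.351. TNF and IL2RA stayed under 1 CPM in all 4 libraries, and IL2 and CCL3 had no counts. With library totals, 1 of the 18 genes was higher. Of the 4 relatives BCL3, NFKBID, NFKBIL1 and NKAP none was called by edgeR, by DESeq2 or at an unadjusted edgeR p under 0.05.

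**Figure D5:**
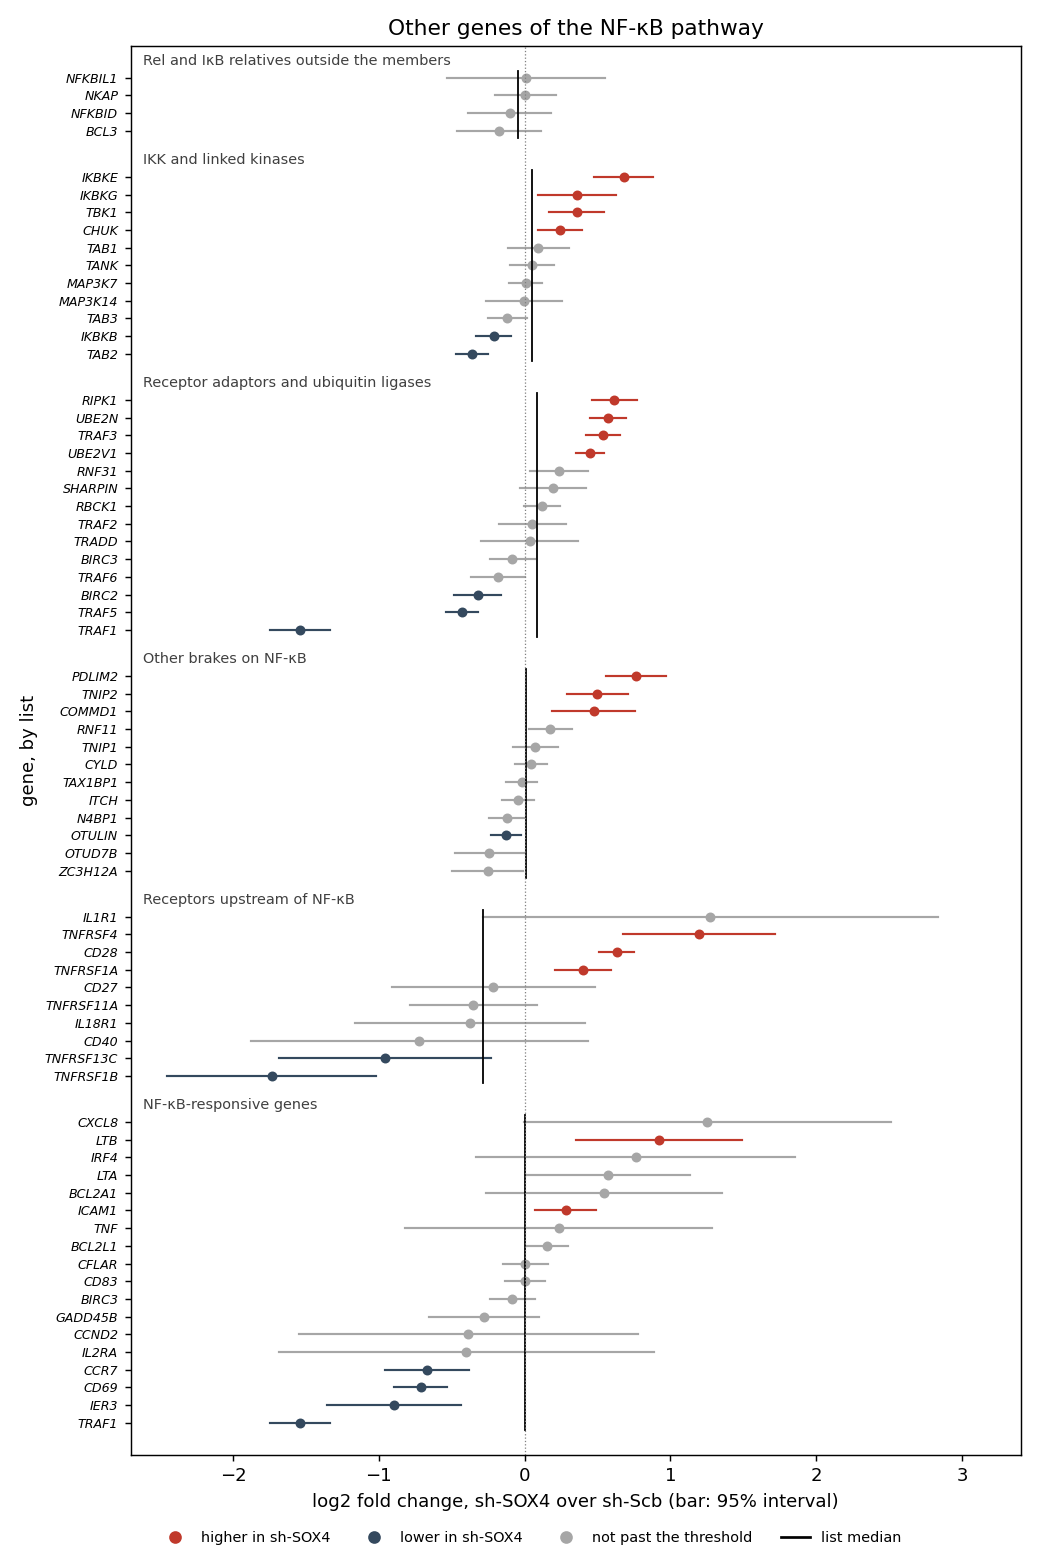
Log2 fold change of every tested gene of the 6 pathway lists, sh-SOX4 over sh-Scb, with 95% intervals and list medians. TRAF1 lies at -1.54, away from the other adaptors, and list medians lie between -0.28 and 0.086.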

How the data were processed

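The authors deposited 1 table of counts, whole numbers that were not normalized, with Ensembl gene IDs as rows and a column for each library. HISAT2 2.2.0, StringTie and hg38 are named in the submitters' processing notes, with no role given, and for the annotation release, use of strand and filters nothing was given in the sources used here. Control columns are named NC and were taken as sh-Scb because the others name SOX4. Symbols were found for 56105 of 64252 IDs, and exons came from GENCODE release 29 on GRCh38.

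IDs with low counts were removed by filterByExpr (minimum count 10), and TMM factors set the library sizes. The groups were compared by the robust quasi-likelihood F-test of edgeR 4.0.16 (R 4.3.3), with Benjamini-Hochberg adjustment over 19897 IDs and a threshold of 0.05. The SE is the size of the log2 fold change divided by the square root of F. A count of 3 corresponds to 0.0819 to 0.103 CPM. Libraries of a group differed by more than sampling noise (median chi-square per gene 1.60 in sh-SOX4 and 1.71 in sh-Scb, against 0.455).

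Members and lists were chosen with earlier results of these data known. All members, SOX4 and, in each list, up to 4 called genes with the smallest adjusted p are named (all where 5 or fewer were called). CHUK, IKBKG, RIPK1, TRAF5, BIRC2, LTB, ICAM1, MAP3K14, CYLD, BIRC3, TNF, IL2RA, IL2, CCL3 and the 4 relatives were named after their values were seen. SOD2 matched no ID. A pathway list and a marker gene are not reported here. Alternatives were scaling to library totals or by median ratios, dropping the filter or setting it at 10 CPM, DESeq2 1.42.0, limma-voom (limma 3.58.1), a replicate block, leaving out each library, a test against 1.2-fold, and counts thinned to the smallest library. On simulated counts for 2 against 2 libraries (19405 IDs), 41.8% of the 67 genes set to 1.5-fold were called, as were 62.5% of the 64 at 2-fold and 87.3% of the 63 at 4-fold. Of 19211 IDs left alone, 4 were called. The genes changed there were a far smaller share than the 44.1% of IDs called in the data. The adjustment was therefore stricter on the simulated counts, and these rates do not carry over to the comparison itself.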

Additional observations from a re-analysis of the deposited data

How the results depend on the processing

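The log2 fold changes of NFKB1, REL, NFKBIB, NFKBIZ and TNFAIP3 kept their direction and passed the threshold under each setting that tested them (13 settings, 12 for NFKBIZ, which a filter at 10 CPM removed). RELB was called under 3 of 13, with adjusted p-values from 0.0366 to 0.248, NFKBIA under 9 (0.00898 to 0.276) and RELA under 12. The setting in which RELA was not called was the test against 1.2-fold, close to its own estimate. NFKB2 was not called as reported but was under 3. NFKBIE turned to -0.0014 with library totals and to -0.039 without sh-SOX4 replicate 2, and was 0.23 at most, without sh-SOX4 replicate 1. Members higher numbered 3 with library totals, 2 in the test against 1.2-fold, and 3 to 4 when each library was left out in turn, against 5 as reported; members lower numbered 3 or 4 under every setting.

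Over all IDs the test against 1.2-fold called 2757 higher and 2591 lower. With library totals, summed log2 ratios became -0.023 for the 5 subunits, 0.36 for the classical inhibitors, 0.20 for NFKB1 with NFKB2 and -0.24 for RELA, REL and RELB. With the longest coding transcript as length, an alternative chosen after seeing the data, they were 0.13 for the 5 subunits, -0.055 for RELA, REL and RELB, and 0.32 for inhibitors over subunits. Of the 27 called pathway genes 16 kept their call under all settings run, 11 lost it under at least 1, and 0 turned direction. The cause of these changes was not tested.

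Same-numbered libraries did not deviate together (correlation -0.010), so the numbers were not used as pairs. With a replicate block, 4 members were higher and 3 lower, RELB having an edgeR adjusted p of 0.0542, and 4422 IDs were higher and 3956 lower. RELB had 327 to 438 counts per library, against 2116 to 2684 for RELA, whose smaller change kept its call under 12 of 13 settings.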
